A study of Homo sapiens with 4 samples.

Results

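A set of 10 genes of pulmonary surfactant and of the alveolar lining were followed across 2 human lung cancer cell lines, A549 and NCI-H358. Their products are the transcription factor NKX2-1, the surfactant proteins SFTPB, SFTPC and SFTPD, the proteins NAPSA, ABCA3, LPCAT1 and SLC34A2 of surfactant processing, lipid handling and phosphate uptake, and HOPX and AQP5, which mark alveolar type I cells. The genes were taken by name, and each was described through every probe set that the platform annotation assigns to that gene alone. This gave 20 probe sets for 10 genes, of 54675 probe sets and 19775 genes with such a probe set on the array.

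The study set cells that carried a CHST11 expression vector against cells that carried an empty vector, in both lines. CHST11 is an enzyme of the Golgi that sulfates chondroitin. There were 4 groups with 1 array each: A549 with empty vector, A549 with CHST11 vector, NCI-H358 with empty vector and NCI-H358 with CHST11 vector. Cells of all 4 groups had been stably transduced and selected with antibiotics, so the empty vector groups share the transduction and the selection. Whether each group was a clone or a pool of cells, and which promoter drove CHST11, is not given in the sources used here. A549 and NCI-H358 are established lines of non-small cell lung carcinoma, grown alone in culture, so no alveolus, fibroblast or air-liquid surface was present. Signals below are the deposited linear MAS5 intensities, and values are always given in the order A549 with empty vector, A549 with CHST11 vector, NCI-H358 with empty vector and NCI-H358 with CHST11 vector.

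Deposited signals were spread alike in the 4 groups, with medians of 15.9 to 16.3 and correlations over probe sets of 0.996 within a line and 0.938 to 0.939 between lines. RNA and array quality were not assessed. A signal of 27.0 or more, the 60th percentile over the 4 arrays, was taken as measured and is called the filter below. Values under 16.1, the 50th percentile, were raised to that floor before logarithms were taken. CHST11 itself (219634_at) had signals of 129, 344, 220 and 1058, so at this probe set the array labelled CHST11 was the higher one in both lines. The other CHST11 probe sets did not show this: 226368_at had 66.4, 71.7, 78.1 and 75.6, and 226372_at had 169, 151, 170 and 187. CDKN2A, which A549 is known to lack by homozygous deletion, had signals of 18.4, 23.9, 668 and 804, and both arrays labelled A549 were below the filter. All 10 epithelial marker genes were measured on at least 1 array, 7 of them in A549 and 10 in NCI-H358. In the line comparison described below, 7 were called higher in NCI-H358 and 3 higher in A549, against 33.9% and 30.6% of all genes tested. PTPRC, which defines leukocytes, was below the filter on every array. The summed signal of all 11 leukocyte marker genes was 174 and 186 in A549 and 647 and 608 in NCI-H358. LCP1, an actin-bundling protein, gave 18.4, 17.3, 438 and 404 of these sums and CORO1A, an actin-binding protein, gave 13.3, 14.6, 83.5 and 83.6, and 7 of the 11 were below the filter on all arrays. The part of other cell types in the line differences was not tested. Of 12 fibroblast markers 8 were below the filter on all arrays, as were 8 of 10 endothelial markers. The summed signal of all 12 fibroblast markers was 490 and 484 in A549 and 341 and 324 in NCI-H358, and that of the 10 endothelial markers ran from 132 to 149.

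Surfactant is the mixture of phospholipid and protein that lowers surface tension in the alveolus and keeps it from collapsing. It is made by alveolar type II cells, assembled in lysosome-related organelles called lamellar bodies, and secreted onto the air surface. NKX2-1 is the homeodomain factor that specifies lung epithelium and drives transcription of the surfactant protein genes together with FOXA factors and GATA6. Type II cells also give rise to the thin type I cells, which carry out gas exchange. A549 is widely used as a stand-in for type II cells and NCI-H358 descends from a bronchioloalveolar carcinoma, so the level of this gene programme in the lines bears on their use as models.

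Promoter sequences are shown for the members with the widest difference between the lines in either direction, NKX2-1 and ABCA3, and for SFTPB, a textbook target of NKX2-1 that was added after its values were seen. The sequences are from RefSeq on GRCh38.p14, are written 5′ to 3′ in the direction of the gene, and end at the base before the annotated start. Both annotated starts of NKX2-1 were used, and the downstream of both for SFTPB. Capitals mark matches to 3 motifs searched on both strands: TCAAG as an NKX2-1 type motif, CAAGTG as an NK2 family type motif, and TGTTTAC as a FOXA type motif. The NK2 motif CAAGTG and its reverse complement, CACTTG, both also fit the E-box CANNTG. All 4 windows lie on the minus strand.
NKX2-1, upstream start, chr14:36520233-36520482: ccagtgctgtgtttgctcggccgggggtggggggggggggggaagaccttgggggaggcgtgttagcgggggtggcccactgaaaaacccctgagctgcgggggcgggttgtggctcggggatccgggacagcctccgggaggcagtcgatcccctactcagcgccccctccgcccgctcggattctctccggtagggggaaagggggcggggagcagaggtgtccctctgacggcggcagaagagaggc
NKX2-1, downstream start, chr14:36519557-36519806: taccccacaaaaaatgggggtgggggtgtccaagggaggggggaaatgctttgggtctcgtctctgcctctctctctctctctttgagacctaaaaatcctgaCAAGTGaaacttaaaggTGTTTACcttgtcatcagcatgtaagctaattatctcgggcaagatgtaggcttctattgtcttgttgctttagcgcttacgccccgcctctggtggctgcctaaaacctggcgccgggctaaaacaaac
ABCA3, chr16:2340729-2340978: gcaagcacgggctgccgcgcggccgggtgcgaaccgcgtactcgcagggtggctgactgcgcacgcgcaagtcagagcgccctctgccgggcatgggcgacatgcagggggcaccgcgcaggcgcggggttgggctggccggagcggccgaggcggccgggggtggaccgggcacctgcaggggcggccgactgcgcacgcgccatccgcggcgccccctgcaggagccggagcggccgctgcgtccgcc
SFTPB, downstream start, chr2:85668200-85668449: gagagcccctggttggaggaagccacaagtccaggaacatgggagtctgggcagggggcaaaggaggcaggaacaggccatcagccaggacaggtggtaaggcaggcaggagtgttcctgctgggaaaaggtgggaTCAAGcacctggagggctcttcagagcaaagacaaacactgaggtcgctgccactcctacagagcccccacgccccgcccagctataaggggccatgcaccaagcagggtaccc

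The windows before the upstream start of NKX2-1 and before ABCA3 were rich in G and C, at 70.8% and 79.2%, and held no match to the 3 motifs. The window before the downstream start of NKX2-1 held CAAGTG beginning 147 bases before the start and TGTTTAC beginning 130 bases before it, at 49.6% G and C. The same window stands in RefSeq as a promoter of SFTA3, the neighbouring surfactant-associated gene described below. The SFTPB window held TCAAG beginning 114 bases before the start. Over all members there were 14 windows from 9 genes, and 5 of the 14 held a match to either NKX2-1 or NK2 type motif. Of all 35116 windows of this length in the table, 34.4% did. Short motifs of this kind are common: TCAAG was in 29.2% of all windows, CAAGTG in 9.5% and TGTTTAC in 2.98%. A match is a description of letters and not a binding site, and no binding data were used here.

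Of the 10 genes, 6 were measured on at least 1 array (NKX2-1, SFTPB, SFTPC, ABCA3, LPCAT1 and HOPX) and 4 stayed below the filter on all arrays (SFTPD, NAPSA, SLC34A2 and AQP5). Over the whole array 12271 of 19775 genes were measured on at least 1 array. The count of members is near that share and is not in itself a result about them. Among the 20 probe sets 9 reached the filter on some array and 3 did so on all arrays, and the other 11 had signals of 3.21 to 25.2. Of all 41091 probe sets with a single gene, 21352 reached the filter on some array. NKX2-1 and HOPX passed only through NCI-H358, so a difference between the lines was built into their passing. No gene of the set was measured in A549 alone, although ABCA3 was below the filter on 1 of the NCI-H358 arrays.

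**Figure D1:**
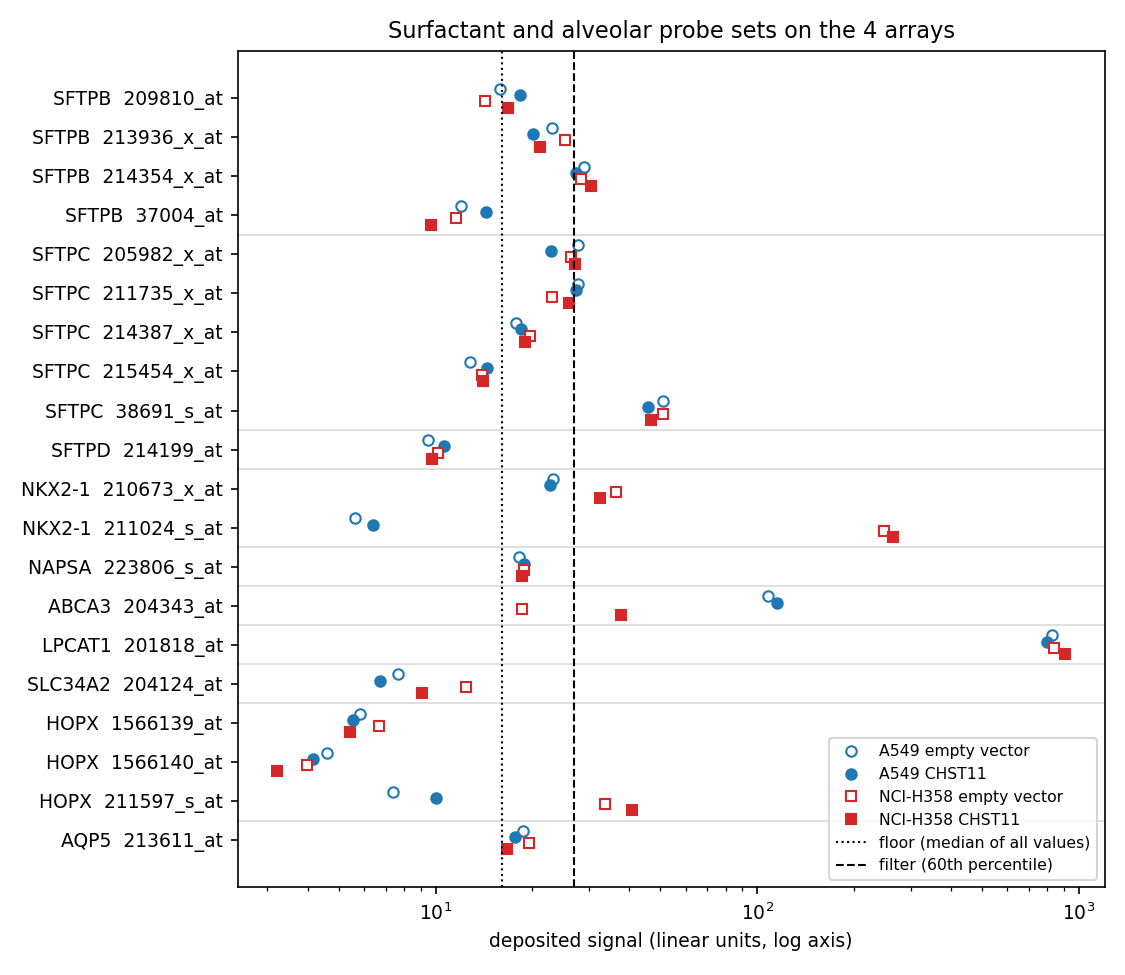
Deposited linear signal (log axis) of all 20 probe sets of the 10 genes on the 4 arrays, with circles for A549, squares for NCI-H358, open symbols for empty vector and filled ones for CHST11 vector; the dotted line is the floor (16.1) and the dashed line the filter (27.0). Both NKX2-1 probe sets and 1 HOPX probe set pass the filter in NCI-H358 alone, ABCA3 is higher in A549, and 11 probe sets lie below the filter on every array.

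The comparison of NCI-H358 with A549 used both arrays of each line and a term for the vector, fitted with limma over all 12271 genes that reached the filter on at least 1 array. Both vectors were carried in each line, so the p-values measure how differently the lines responded to the vector plus array noise, and not the spread between separate cultures. NKX2-1 and HOPX were called higher in NCI-H358 and ABCA3 was called higher in A549, while SFTPB, SFTPC and LPCAT1 were not called. That is 3 of the 6 members tested, against 64.5% of all genes tested. By direction, 33.9% of all genes were called higher in NCI-H358 and 30.6% higher in A549. Most genes tested were called between the lines, so the number of members called is not in itself a result about them, and each is described below by its signals and the size of its difference.

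**Figure D2:**
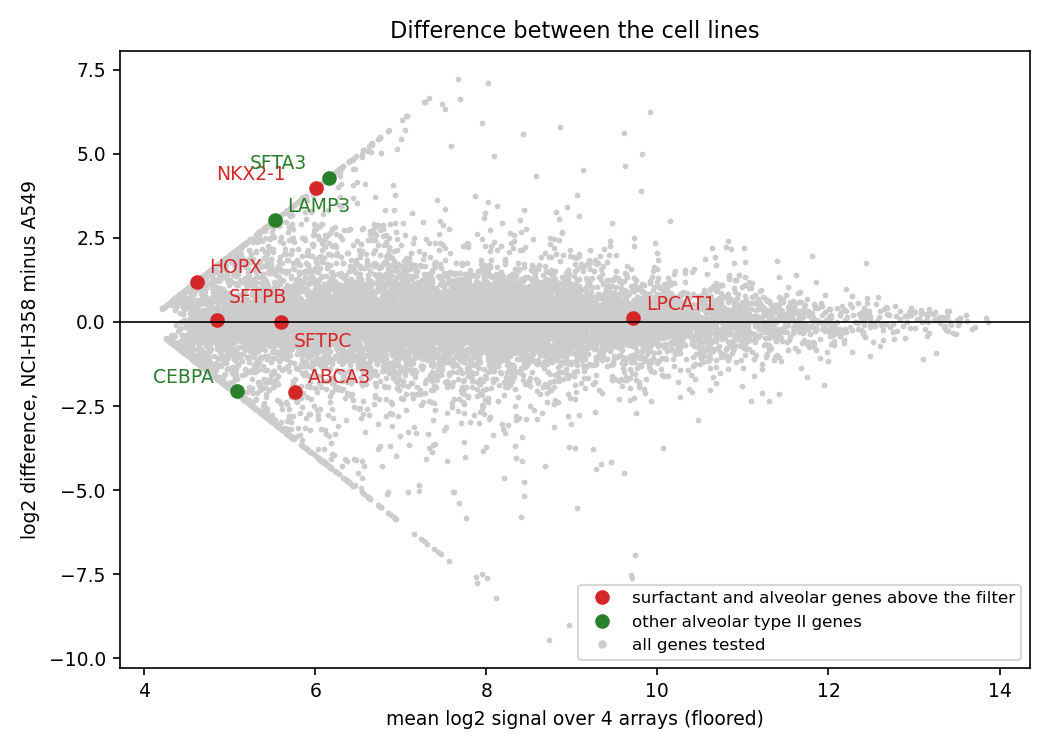
Log2 difference NCI-H358 minus A549 against the mean log2 signal over the 4 arrays, both on floored values, for all 12271 genes tested (grey), the 6 members above the filter (red) and SFTA3, LAMP3 and CEBPA of the other type II genes (green). NKX2-1 (3.98) and HOPX (1.20) lie on the upper edge that the floor in A549 draws, ABCA3 is at −2.08, and SFTPB, SFTPC and LPCAT1 lie close to 0.

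NKX2-1, the lung and thyroid lineage factor, was the member with the widest difference. Its probe set 211024_s_at had signals of 5.62, 6.39, 247 and 264. Both NCI-H358 arrays were far above the filter and both A549 arrays far below it, with no overlap between the lines. The log2 difference was 3.98 (SE 0.0897, limma adjusted p = 3.09e-05) on floored values and 5.41 with no floor. Because A549 was below the filter, NKX2-1 signal was at least 9.46-fold higher in NCI-H358. In bulk cultures fewer cells with a transcript and less transcript per cell cannot be told apart. Both A549 values were at the floor, so the SE holds no spread from A549. The second NKX2-1 probe set, 210673_x_at, gave 23.2, 22.6, 36.5 and 32.5, again with NCI-H358 above A549 on both arrays. Its log2 difference of 0.59 (SE 0.1, limma adjusted p = 0.00581 in a fit over single-gene probe sets) had the same sign and was far smaller. With the median of the probe sets in place of the brighter one, the NKX2-1 difference was 2.29.

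On chromosome 14 RefSeq lists the named genes around NKX2-1 in the order MBIP, SFTA3, NKX2-1, NKX2-1-AS1 and NKX2-8. SFTA3 (228979_at), a surfactant-associated gene that RefSeq annotates as a long non-coding RNA and that shares a promoter window with NKX2-1, had signals of 3.58, 4.38, 282 and 354. It was seen in NCI-H358 and not in A549, as was NKX2-1, at a signal at least 11.7-fold higher in NCI-H358 (log2 difference 4.29 on floored values, SE 0.116, limma adjusted p = 4.46e-05). SFTA3 too passed the filter only through NCI-H358, and both of its A549 values were at the floor. Below, LAMP3, GRHL2 and MYL9 also passed only through NCI-H358, being below the filter on both A549 arrays, and CEBPA and LRRK2 only through A549. For LAMP3 and LRRK2 both values of the dimmer line were at the floor, and for GRHL2, MYL9 and CEBPA not both were. For these genes the "at least" fold is the measure of size, and the p was computed on floored values. MBIP, which binds a MAP kinase kinase kinase, had 113, 114, 151 and 186 and a log2 difference of 0.56 (SE 0.109, limma adjusted p = 0.0105). NKX2-8, a related homeobox gene, stayed at 18.4 to 20.5. NKX2-1-AS1, the antisense transcript, had 8.13, 8.32, 22.7 and 16.8. Both of these were below the filter on all arrays, and their levels were not compared.

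No surfactant protein probe set showed a line difference of the size seen at NKX2-1. The 10 probe sets of the surfactant proteins had signals of 9.47 to 51.1 over all arrays, and only 4 of the 10 reached the filter on any array. At signals this close to background, whether the transcripts followed NKX2-1 cannot be told. With no floor, the log2 differences of the 10 probe sets between the lines ran from −0.31 to 0.10, so none was as much as 1.5-fold apart between lines.

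SFTPB encodes the hydrophobic protein that spreads phospholipid at the air surface and is needed for lamellar body assembly. Its representative probe set, 214354_x_at, had signals of 29.1, 27.3, 28.4 and 30.5. All 4 arrays lay just above the filter and the lines overlapped. The log2 difference was 0.06 (SE 0.0977, 95% interval −0.20 to 0.32, limma adjusted p = 0.598). The other SFTPB probe sets were below the filter on all arrays, with 213936_x_at at 23.0, 20.1, 25.2 and 21.1, 209810_at at 15.8, 18.3, 14.2 and 16.8, and 37004_at at 12.0, 14.3, 11.6 and 9.66. Their lines overlapped at the first 2 of these, and at 37004_at both A549 arrays were the higher ones, below the floor.

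SFTPC encodes a hydrophobic surfactant peptide regarded as the most specific product of type II cells. Its brightest probe set, 38691_s_at, had signals of 51.1, 45.9, 51.1 and 46.7. The lines overlapped, and the log2 difference was 0.01 (SE 0.0872, 95% interval −0.22 to 0.24, limma adjusted p = 0.906). A further pair of SFTPC probe sets touched the filter on some arrays: 205982_x_at had 27.8, 22.9, 26.3 and 27.2, and 211735_x_at had 27.6, 27.3, 23.1 and 26.1. The others, 214387_x_at and 215454_x_at, stayed between 12.8 and 19.6. Since these probe sets lay close to the filter, the intervals describe signals near background and set no upper limit on a difference in transcript level.

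SFTPD encodes the collectin of innate defence in the alveolus. Its probe set 214199_at had signals of 9.47, 10.6, 10.2 and 9.76, below the floor on every array. SFTPA1 and SFTPA2, which encode the related collectin and share most of their sequence, had no probe set of their own under the single-gene rule and were not analysed here.

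ABCA3 pumps phospholipid into the lamellar body and was the member that was higher in A549. Its probe set 204343_at had signals of 108, 116, 18.6 and 37.8. Both A549 arrays were above both NCI-H358 arrays, and the NCI-H358 array with empty vector was below the filter. The log2 difference was −2.08 (SE 0.235, 95% interval −2.70 to −1.45, limma adjusted p = 0.00183). With the 1 array below the filter raised to it, ABCA3 signal was at least 3.5-fold higher in A549. The call was lost when either A549 array was left out, at limma adjusted p = 0.102 without the empty vector array and 0.109 without the CHST11 array, and also with no filter, at 0.182. Over all 15 alternatives the difference stayed between −2.59 and −1.56, and 12 of the 15 kept the call (adjusted p from 0.000243 to 0.182). ABCA3 had a single probe set, so no second one could be compared.

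NAPSA encodes napsin A, the aspartic protease that processes the SFTPB precursor and is a diagnostic marker of lung adenocarcinoma. Its probe set 223806_s_at had signals of 18.2, 18.9, 18.9 and 18.6, below the filter on every array and spread over less than 1 signal unit. NAPSA was thus not measured in either line, although NKX2-1 was measured in NCI-H358.

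LPCAT1, the enzyme that remodels lysophosphatidylcholine into the dipalmitoyl lipid of surfactant, was measured well above the filter in all groups. Its probe set 201818_at had signals of 829, 797, 840 and 909. The NCI-H358 arrays lay slightly above those of A549, without overlap, but the log2 difference of 0.10 did not pass the test (SE 0.0957, 95% interval −0.15 to 0.36, limma adjusted p = 0.383). SLC34A2, the sodium phosphate cotransporter of type II cells, had signals of 7.65, 6.72, 12.5 and 9.10 (204124_at). All were below the floor and gave no comparison.

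HOPX is a homeodomain protein without DNA binding that marks type I cells and their precursors. Its brightest probe set, 211597_s_at, had signals of 7.38, 10, 33.6 and 40.9. NCI-H358 was above the filter and A549 below the floor, with no overlap. The log2 difference was 1.20 on floored values (SE 0.11, 95% interval 0.91 to 1.49, limma adjusted p = 0.00097) and 2.11 with no floor, and the signal was at least 1.37-fold higher in NCI-H358. Both A549 values were at the floor, so, as for NKX2-1, the SE and the interval hold no spread from A549. With no filter the limma adjusted p rose to 0.111 and the call was lost. HOPX was tested in 13 alternatives, and this was the only loss among them (adjusted p from 0.000352 to 0.111). HOPX was not tested with a raised filter or with the median of its probe sets, so those settings do not bear on its call. The other HOPX probe sets, 1566139_at and 1566140_at, had signals of 3.21 to 6.68 and did not reach the floor. AQP5, the water channel of type I cells and of glands, had signals of 18.7, 17.7, 19.5 and 16.7 (213611_at), below the filter on every array.

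The labelled purpose of the experiment was the effect of CHST11 expression. With 1 array a group there is no test within a line, and genes were counted by size instead. The gauge for a ratio was the disagreement between probe sets of the same gene, with an SD of the log2 ratio of 0.158 in A549 (over 5117 genes) and 0.173 in NCI-H358 (over 5150 genes). This SD comes from the same pair of arrays, so it holds no spread between cultures or arrays that a gene's probe sets share. At a fold of 2, 0 of the 4 members measured in A549 and 1 of the 6 measured in NCI-H358 differed by vector. Over all genes measured in the line the share was 0.114% in A549 (13 of 11448) and 0.0527% in NCI-H358 (6 of 11395). At a fold of 1.5 the counts of members were the same, against 1.21% and 1.17% of all genes.

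**Figure D3:**
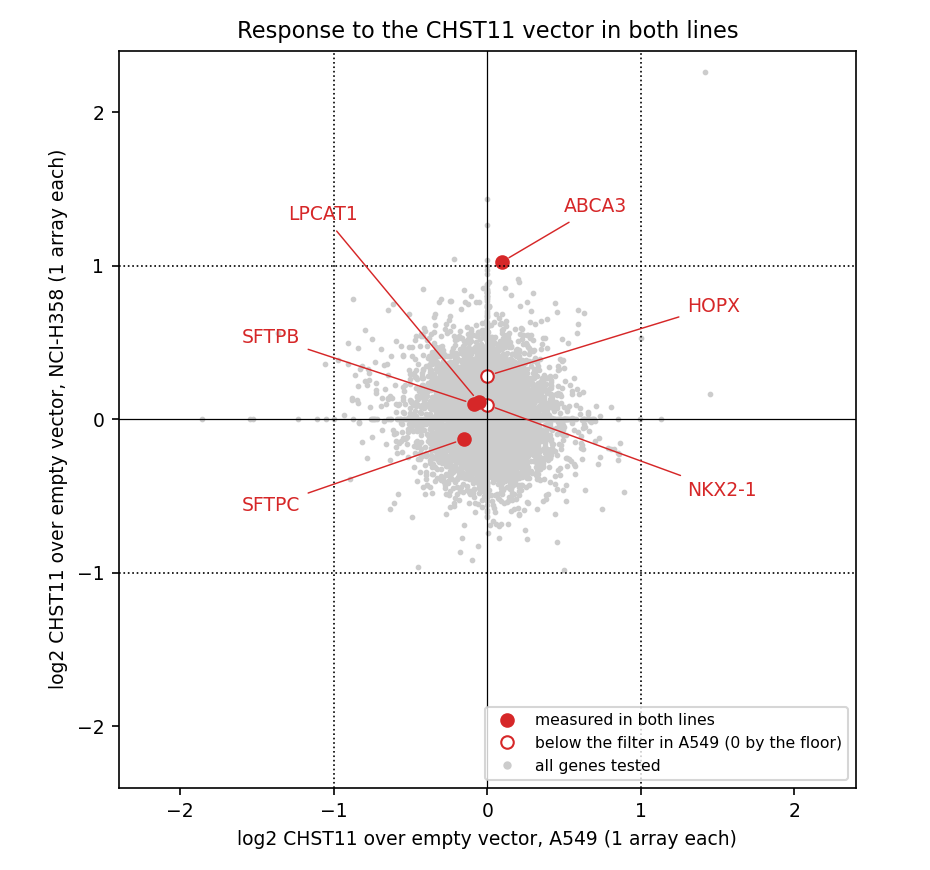
Log2 ratio of CHST11 over empty vector in A549 (x axis) against that in NCI-H358 (y axis), 1 array each, for genes measured in either line (grey) and the 6 members (red, open where the gene was below the filter in A549 and so at 0 by the floor); dotted lines mark 2-fold. ABCA3 lies past the 2-fold line in NCI-H358 (1.03), and the other members lie between −0.15 and 0.28 on both axes.

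ABCA3 was the 1 member at 2-fold. In NCI-H358 its signal went from 18.6 with empty vector to 37.8 with CHST11 vector, 2.04-fold, a log2 ratio of 1.03. In A549 it was 108 and 116, a log2 ratio of 0.09. The lower NCI-H358 array lay between the floor and the filter, and with the floor raised to the filter the log2 ratio was 0.49. Over both lines the limma estimate was 0.56 (SE 0.235, unadjusted p = 0.0684, adjusted p = 1). ABCA3 had the higher signal with CHST11 vector in both lines, and the difference between the lines' ratios was not tested.

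The remaining members differed little by vector. In NCI-H358 the log2 ratio was 0.09 for NKX2-1, with −0.17 at its second probe set, and 0.28 for HOPX. SFTPB had −0.09 in A549 and 0.10 in NCI-H358, SFTPC had −0.15 and −0.13, and LPCAT1 had −0.06 and 0.11. The 10 surfactant protein probe sets ranged from −0.28 to 0.26 in A549 and from −0.26 to 0.25 in NCI-H358 with no floor. Over both lines limma called 0% of the 12271 genes by vector, with 374 at an unadjusted p under 0.05 and 330 by limma with a mean-variance trend, which also called 0. Both counts were below the share of 0.05 that such a threshold gives where nothing differs. CHST11, the gene on the vector, was among those not called, so the absence of calls carries no information on the members. An exact permutation of 2 arrays against 2 cannot give a p below 0.333.

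The other genes of alveolar type II cells were called in both directions, at about the share of all genes. Of 26 with a probe set 14 were tested, of which 5 were higher in NCI-H358, 4 were higher in A549 and 5 were not called. That is 64.3% called, against 64.5% of all genes tested (33.9% higher in NCI-H358 and 30.6% higher in A549). The median log2 difference was 0.04, against 0.03 over all genes tested. LAMP3, a lamellar body membrane protein, had signals of 10.5, 8.01, 123 and 141 and was at least 4.87-fold higher in NCI-H358 (log2 difference 3.03, limma adjusted p = 6.87e-05). CEBPA, a factor of type II maturation, had 75.5, 63.6, 16.1 and 17.0 and was at least 2.57-fold higher in A549 (−2.07, adjusted p = 0.000243). LRRK2, a kinase of lamellar body turnover, had 42.1, 42.6, 5.10 and 4.21 and was at least 1.57-fold higher in A549 (−1.39, adjusted p = 0.000333). ETV5, a factor that maintains type II cells, had 311, 286, 316 and 334 and was not called (adjusted p = 0.334). SFTA2 was below the floor on all arrays, at 5.77 to 5.99.

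**Figure D4:**
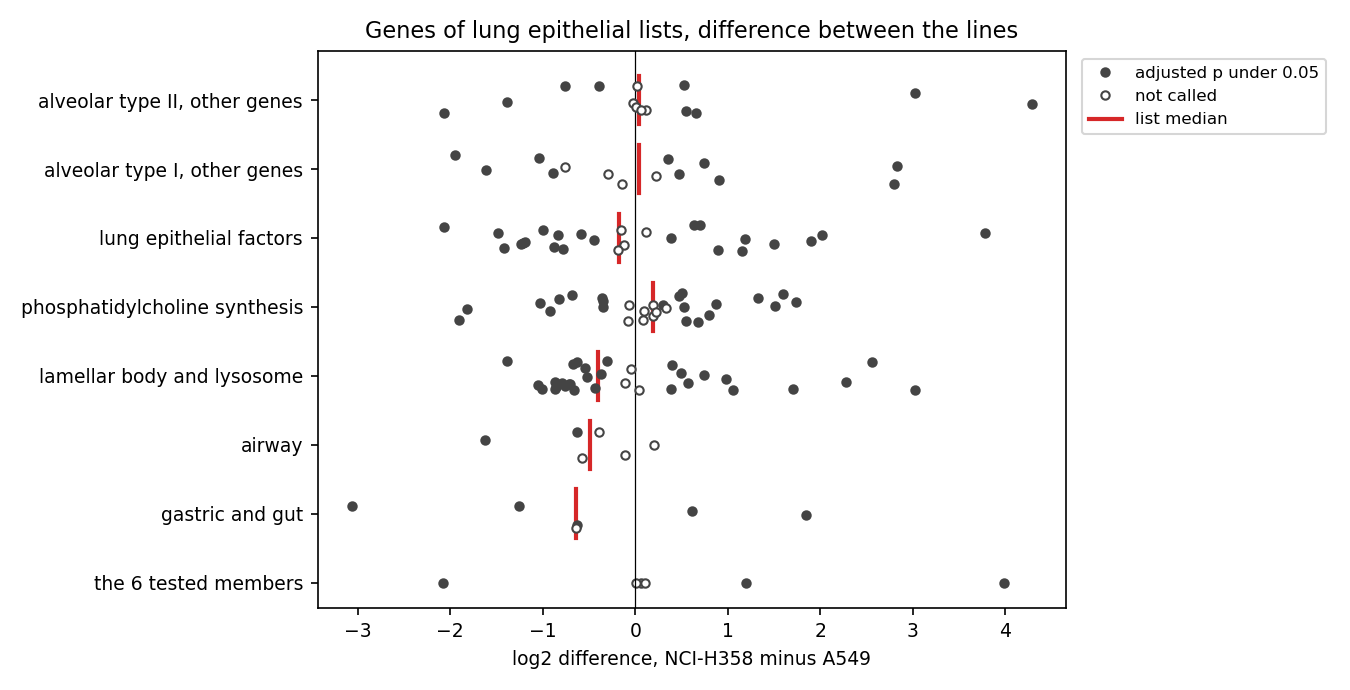
Log2 difference NCI-H358 minus A549 of every tested gene in 7 lists of lung and gut epithelium and of the 6 members tested, 1 point a gene with random vertical offset in the lists; filled points had a limma adjusted p under 0.05 and red bars are list medians. The 5 alveolar lists hold genes called in both directions, with medians from −0.40 to 0.20. Of all genes tested 33.9% were called higher in NCI-H358 and 30.6% higher in A549.

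Of 23 alveolar type I genes 14 were tested, with 6 higher in NCI-H358, 4 higher in A549 and a median of 0.04. The share called was 71.4%, against 64.5% of all genes tested. SCEL, a cornified envelope protein, had signals of 37.7, 21.2, 203 and 199, and MYL9, a myosin light chain, had 18.2, 15.5, 107 and 134. Both were called higher in NCI-H358, SCEL at least 6.30-fold and MYL9 at least 4.43-fold, since 1 A549 array of SCEL and both of MYL9 were below the filter. In the other direction IGFBP2, a binding protein of insulin-like growth factors, had 128, 135, 27.6 and 42.3 (log2 −1.95), and GPRC5A, an orphan receptor of lung epithelium, had 1268, 1217, 407 and 404 (−1.62). AGER, the receptor that marks type I cells, was below the filter on all arrays at 15.0 to 17.6.

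Lung epithelial transcription factors, among them those that act with NKX2-1, were called in both directions, as were genes at large. Of 27 such factors 26 were tested, with 10 higher in NCI-H358, 12 higher in A549 and a median of −0.17. The share called was 84.6%, against 64.5% of all genes tested (33.9% higher in NCI-H358 and 30.6% higher in A549). The difference in share was not tested. FOXA1 had signals of 84.8, 87.6, 234 and 253 and was higher in NCI-H358 (2.82-fold, limma adjusted p = 0.000286). FOXA2 had 203, 230, 92.9 and 93.3 and was higher in A549 (−1.22, adjusted p = 0.000655). GATA6 had 57.8, 56.4, 224 and 241 and was higher in NCI-H358 (2.02, adjusted p = 0.000152). GRHL2, an epithelial factor, had 14.5, 17.7, 238 and 227 and was at least 8.61-fold higher in NCI-H358. ELF3, an epithelial ETS factor, had 284, 371, 119 and 114 and was higher in A549 (−1.48, adjusted p = 0.00101), as was CEBPA above. FOXA1, FOXA2 and GATA6 were measured on both arrays of both lines, and NKX2-1 on both arrays of NCI-H358 alone. SFTPB and SFTPC did not pass the test between the lines, at signals that set no upper limit on a difference in transcript level.

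Genes of phosphatidylcholine synthesis and remodelling, the pathway of the main surfactant lipid, were measured in 29 of 32 cases. The list also takes in fatty acid synthesis genes, such as FASN and SCD, and genes that encode no enzyme, such as PLIN2. Of the 29 measured, 12 were higher in NCI-H358 and 9 higher in A549, with a median of 0.20. The share called was 72.4%, against 64.5% of all genes tested. CHKA, which starts the choline branch, had the highest difference (119, 111, 356 and 415, log2 1.74), followed by LPCAT2 (1.60). SCD, the stearoyl desaturase, was the lowest (4005, 3842, 860 and 1277, −1.90), followed by LPCAT3 (−1.82). All 32 genes of lamellar body formation and lysosome-related traffic were tested, with 11 higher in NCI-H358, 18 higher in A549 and a median of −0.40. The share called was 90.6%, against 64.5% of all genes tested, and the difference in share was not tested. LAMP3 and LRRK2, given above, are also in this list. RAB38, a small GTPase of lamellar body traffic, was higher in NCI-H358 (34.6, 30.1, 201 and 182, log2 2.56). PSAP, the precursor of the saposins, was higher in A549 (2527, 2588, 1246 and 1218, −1.05).

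By vector, these 5 lists held 1 gene at 2-fold in A549 and 0 in NCI-H358. List medians of the log2 ratio lay between −0.04 and 0.05 in A549 and between −0.03 and 0.21 in NCI-H358, against 0.01 and 0.00 over all genes measured. The lists share the same arrays, and their medians were not tested. The gene at 2-fold was COL4A4, a basement membrane collagen of the type I list, with signals of 46.5 and 15.0 in A549. Its second value was below the floor.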

How the data were processed

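Total RNA from 4 cell groups was hybridised to Affymetrix arrays, 1 array a group. The deposited values are linear signal intensities of 54675 probe sets, made by the authors with MAS5 per the submitters' processing notes; for its version and scaling no source was at hand. The members and gene lists were chosen with earlier results of these data known. A probe set was used where the platform annotation gives 1 gene symbol (41091 probe sets; 1801 had several, 11721 none and 62 were controls), and 99.9% of these matched RefSeq. Each gene was represented by its brightest probe set (mean log2 signal over arrays). Signals were floored at 16.1 (50th percentile), log2 transformed, and kept where at least 1 array reached 27.0 (60th percentile). No further normalization was applied.

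The lines were compared with limma 3.58.1 in R 4.3.3, with the vector as a term, 1 residual degree of freedom and 3.54 prior ones, at a Benjamini-Hochberg adjusted p of 0.05 over 12271 genes. The fit was tested on simulated data. The vector was counted by fold (2, or 1.5) within a line. "At least" folds set arrays of the dimmer line below the filter at the filter. Tables and figures used Python 3.11.15, NumPy 2.4.6, pandas 2.3.3 and matplotlib 3.10.9. Named genes were all members, CHST11, NKX2-1's neighbours, the markers and, of each pathway list, the 2 highest and 2 lowest by difference plus preset factors. Alternatives were other normalizations, floors, filters, probe set summaries, limma settings and each array left out. The number of arrays limits the precision.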

Additional observations from a re-analysis of the deposited data

Results flagged for a closer look

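SFTPB and LPCAT1 had log2 ratios of CHST11 over empty vector of opposite sign in the 2 lines, and the difference was not tested. For SFTPB the ratio was −0.09 in A549 and 0.10 in NCI-H358, a difference of 0.19. For LPCAT1 it was −0.06 and 0.11, a difference of 0.17. Each of the 4 ratios was smaller than the SD between probe sets of a gene, 0.158 in A549 and 0.173 in NCI-H358. That SD holds no spread between cultures.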

How the results depend on the processing

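NKX2-1 was higher in NCI-H358 under all 15 alternatives, with a log2 difference of 2.29 to 5.41, and kept its call with no filter (limma adjusted p = 0.0353). It passed the filter only through NCI-H358, and in the main fit both of its A549 values were at the floor. Many of these settings could therefore hardly give another outcome. Leaving out either A549 array returned the difference of the main fit, 3.98. The 7909 genes called between lines became 1905 with no filter and 13487 in a fit over single-gene probe sets. With no filter, limma lost the calls of ABCA3 (adjusted p = 0.182), HOPX (0.111), SFTA3 (0.0556), LAMP3 (0.0514) and CEBPA (0.0844); that setting tests 19775 genes and leaves 0.374 prior degrees of freedom. Leaving out arrays in turn, with no vector term and the lone array of a line assumed to vary like the other pair, ended the call of ABCA3 without either A549 array. The SFTPC line difference, 0.01 and not called, turned negative with quantile normalization (−0.014), cyclic loess (−0.016) and the median of probe sets (−0.037), and ran from −0.065 to 0.090 with arrays left out. The 13 genes at 2-fold in A549 became 5 with the filter at the 75th percentile, 8 with the median of probe sets and 138 at 1.5-fold, and the 6 in NCI-H358 became 3, 3 and 133. The ABCA3 ratio of 1.03 in NCI-H358 became 0.49 with the floor raised to the filter, an alternative added after seeing the data. The causes were not tested. Cell line and vector were both terms of the fit, so its vector estimate over both lines compared arrays within each line. Replicate cultures could not be paired, because each group had 1 array and the labels carry no replicate numbers. Signals near the filter limit every statement on SFTPB, SFTPC and HOPX, and 4 members gave no comparison.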

Other observations

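Genes of other epithelia were sparsely measured, against 12271 of 19775 genes over the whole array. Of 23 genes of airway secretory, ciliated and basal cells 6 were tested, with 2 higher in A549 and a median log2 difference of −0.49. The share called was 33.3%, against 64.5% of all genes tested. AGR2, a disulfide isomerase of mucus cells, had signals of 2019, 1741, 552 and 674 and was higher in A549 (log2 −1.62, limma adjusted p = 0.000952). SPDEF, a factor of goblet cells, had 94.9, 93.4, 55.4 and 67.2 and was also higher in A549 (−0.63, adjusted p = 0.00781). MUC5AC, a gel-forming mucin (0.21), and TPPP3, a tubulin-binding protein of ciliated cells (−0.12), were not called. SCGB1A1, the club cell secretoglobin, was below the floor on all arrays, at 7.82 to 9.16. Of 20 gastric and gut genes 6 were tested, with 3 higher in A549 and 2 higher in NCI-H358 (83.3% called). CDH17, an intestinal cadherin, had 169, 108, 14.5 and 14.5 and was at least 5.01-fold higher in A549 (−3.07, adjusted p = 0.000253). ANXA10, an annexin of gastric epithelium, had 109, 181, 61.3 and 56.2 and was higher in A549 (−1.26, adjusted p = 0.00691). HNF4G, a nuclear receptor of gut epithelium, had 28.0, 25.1, 36.9 and 44.4 and was called higher in NCI-H358 (at least 1.47-fold, adjusted p = 0.0141). VSIG1, a junction protein of gastric epithelium, had 6.68, 9.02, 57.5 and 58.4 and was at least 2.15-fold higher in NCI-H358 (1.84, adjusted p = 0.000162). CDH17 passed the filter only through A549 and VSIG1 only through NCI-H358, so a line difference was built into their passing. Both values of their dimmer line were at the floor, and the "at least" fold is the measure of size.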
